A study of Andropogon gerardi with 36 samples.

Results

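The maize genes mbd101, mbd106 and mbd115 encode proteins with a methyl-CpG-binding domain, and their signal was followed here in big bluestem (Andropogon gerardi), a grass of the tallgrass prairie and a relative of maize. The members were all array probes annotated with 1 of these symbols and no other gene. They numbered 21 of 19200 probes, or 21 of the 1800 probes with a single symbol: 4 for mbd101 (Entrez gene 542066), 5 for mbd106 (Entrez gene 542069) and 12 for mbd115 (Entrez gene 542208). The rule used the annotation alone and no measured value. No sequence of a probe, gene or protein was among the sources used here, so which probes of a gene overlap was not analysed.

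Proteins with a methyl-CpG-binding domain are readers of DNA methylation: the domain can recognise a methylated cytosine that is followed by guanine, and in animals such proteins bring histone deacetylases and other repressive complexes to methylated DNA. Flowering plants carry a larger family, and work in Arabidopsis found that only some of its members bind methylated DNA. Which of the maize proteins do so, and what each does in a grass, is not known from the labels or files. DNA methylation itself was not measured, so the values below concern transcript signal only.

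The plants grew on the Konza prairie in 12 plots covered by rainout shelters, where the study looked at warming and at changes in soil moisture. Each 2-colour array compared RNA of a plant from 1 plot in Cy5 with RNA of a plant from another plot in Cy3, always within the same 6 pairs of plots. Plots 2 and 3 were set against each other on 8 arrays, plots 4 and 5 on 7, plots 6 and 9 on 8, plots 7 and 10 on 4, plots 11 and 12 on 4, and plots 13 and 15 on 3. Of these arrays 11 were of June, 6 of JulyA, 6 of JulyB and 11 of Aug. Subplot 1 met subplot 1, or the array belonged to a class called subplots 2 and 4 below. In that class subplot 4 met subplot 2 in plots 2 and 3, and subplot 2 met subplot 4 in plots 4 and 5. Plot and subplot cannot be told apart on those arrays. Subplot 4 met subplot 4 in plots 6 and 9 and plots 7 and 10. Subplot 2 met subplot 2 in plots 11 and 12 and plots 13 and 15. The sources used here state neither the treatment of a plot or subplot nor the tissue sampled. No group below can therefore be called warm, dry or control.

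Of 36 arrays, 34 entered. The column of 1 array was empty, and 1 array carried the same plant code in both channels. An array held values for 2199 to 9530 probes (median 5357), and the array medians lay between -0.11 and 0.12. All values below are log2 ratios within an array. They were turned so that the lower-numbered plot of a pair came first, which changed the sign on 3 arrays of plots 2 and 3 and 2 arrays of plots 7 and 10. Whether the deposited ratio is Cy5 over Cy3 or the reverse is not stated, so a positive value does not say which plot had more transcript. The order within a pair follows plot number alone, so the same sign in different pairs is not a shared direction. Arrays of a pair often repeat a plant code: joined by such codes they form 2, 4, 3, 3, 2 and 2 sets in the order of pairs above. Nothing says that arrays with a shared code are separate extracts, so the p-values below measure the spread between arrays, which may in part be technical. In 4 of the 6 pairs all arrays ran in a single dye orientation, where dye and plot cannot be told apart from those arrays alone. Since whole samples were hybridised, fewer cells of a type and less RNA per cell cannot be told apart either.

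The 3 genes differed in how often they gave a value at all. The probes of mbd106 had values on 13 to 29 arrays (median 26), those of mbd115 on 4 to 29 (median 16.5), and those of mbd101 on 2 to 11 (median 4.5). At least 1 probe was measured on 32 arrays for mbd106, on all 34 for mbd115, and on 15 for mbd101. A missing value has no stated reason, and the sources used here name no filter. The gaps give an order of detection among these probes, not of transcript level.

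More of these probes had a value in Aug than in June. Of the 21 probes, 39.4% ± 15.1 (SD, n = 11 arrays) had a value in June, 33.3% ± 15.1 (n = 6) in JulyA, 49.2% ± 14.7 (n = 6) in JulyB and 65.8% ± 14.1 (n = 11) in Aug. Averaged within a pair, the share was higher in Aug than in June in 6 of 6 pairs, from 33.3% to 38.1% in plots 4 and 5 at the smallest step and from 16.7% to 64.3% in plots 11 and 12 at the largest. Averaged over arrays, 22.1%, 22.4%, 26.8% and 39.9% of all probes had a value at the 4 times, and 38.7%, 39.2%, 45.1% and 58.3% of probes with a single symbol. Within pairs the share of all probes was higher in Aug in each pair but plots 7 and 10, where it was 33.9% in June and 33.7% in Aug while that of the mbd probes was 54.8% and 61.9%. What part the array-wide change has in that of the mbd probes was not tested.

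**Figure D1:**
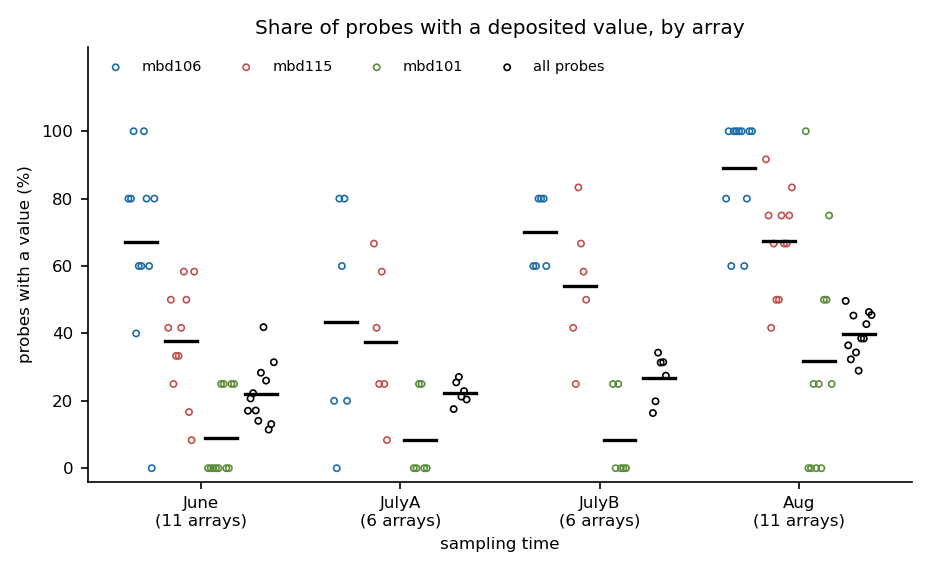
Share of probes with a deposited value on each array (vertical axis, percent) at the 4 sampling times (horizontal axis). Each circle is 1 array, coloured by gene or black for all probes on the array, and the black bar is the mean over arrays. The bars of mbd106 lie above those of mbd115 and mbd101 at each time, and all sets are highest in Aug.

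Taken apart, mbd106 had a value at 67.3% of its probes in June, then at 43.3% in JulyA, at 70.0% in JulyB and at 89.1% in Aug. The corresponding shares of mbd115 were 37.9%, 37.5%, 54.2% and 67.4%. The gene mbd101 stood at 9.09%, 8.33% and 8.33% until JulyB and at 31.8% in Aug, and 3 of its 4 probes had no value in June. By pair, mbd115 was higher in Aug than in June in each, mbd106 was lower in plots 4 and 5 (70% against 60%), and mbd101 had the same share at both times in plots 4 and 5, plots 6 and 9 and plots 7 and 10. An Aug array of plots 2 and 3 was the array with values at all 4 mbd101 probes. The same array held 9530 values in all, the most of the 34.

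The gene mbd106 leaned to positive ratios in plots 4 and 5 and lay near 0 elsewhere. Over the arrays of a pair, the mean of its measured probes was 0.42 ± 0.43 (SD, n = 7) in plots 4 and 5, where 6 of 7 arrays were positive. It was 0.14 ± 0.27 (n = 7) in plots 2 and 3, 0.06 ± 0.54 (n = 8) in plots 6 and 9, 0.13 ± 0.26 (n = 4) in plots 7 and 10, -0.05 ± 0.09 (n = 3) in plots 11 and 12 and 0.00 ± 0.40 (n = 3) in plots 13 and 15. In every pair, plots 4 and 5 included, the mean was smaller in size than the SD over arrays. With the ratios as deposited the mean of plots 2 and 3 became -0.01 ± 0.31, and that of plots 7 and 10 stayed at 0.12 ± 0.26.

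Within plots 4 and 5 the mbd106 arrays of subplots 2 and 4 stood at 0.07 (June), 0.78 (JulyA), 0.74 (JulyB) and 0.99 (Aug). Those of subplot 1 stood at -0.15 (June), 0.40 (JulyA) and 0.10 (JulyB). The June arrays were the lowest of each run, and the groups overlap, since 0.40 in subplot 1 exceeds 0.07 in subplots 2 and 4. On 3 arrays of plots 4 and 5, all of subplots 2 and 4, all of the 3 or 4 measured mbd106 probes were positive. Of all values on these arrays, 51.4% (JulyA), 48.4% (JulyB) and 50.0% (Aug) were above 0.

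A run of positive values also came in Aug in plots 6 and 9. All 5 mbd106 probes were measured on both Aug arrays there, and all were positive. They lay at 0.35 to 1.06 in subplot 1 (mean 0.75) and at 0.44 to 0.62 in subplot 4 (mean 0.53). The same pair gave -0.17 and 0.21 in June, and a JulyA array with a single measured probe gave -1.04. Of all values on these Aug arrays, 52.7% and 50.6% were above 0. In plots 13 and 15 the order was the other way, with 0.45 on the June array and -0.12 and -0.33 on the Aug arrays.

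The mbd106 probe with the most values, probe 2960 (29 arrays), was highest in plots 4 and 5. There it ran from -0.26 to 0.98 with a median of 0.83 over 7 arrays, 5 of them positive. In plots 2 and 3 it ran from -0.61 to 0.47 (median 0.21, 6 arrays, 4 positive), or as deposited with a median of -0.21 and 1 positive array. It ran in plots 6 and 9 from -0.65 to 0.96 (median -0.08, 7 arrays). The ranges of these pairs overlap. Plots 7 and 10 gave 0.05 in June against -0.46 and 0.74 in Aug. Plots 11 and 12 gave 0.05 in June against 0.32 and -0.28 in Aug, while plots 13 and 15 gave 0.98 in June against -0.17 and -0.26 in Aug. In each of these pairs the 3 arrays held both signs, but as deposited the 3 of plots 7 and 10 were all positive. The remaining mbd106 probes, 913, 1272, 2082 and 2555, had medians of 0.06, 0.12, 0.27 and 0.14 over all their arrays, against 0.13 for probe 2960.

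**Figure D2:**
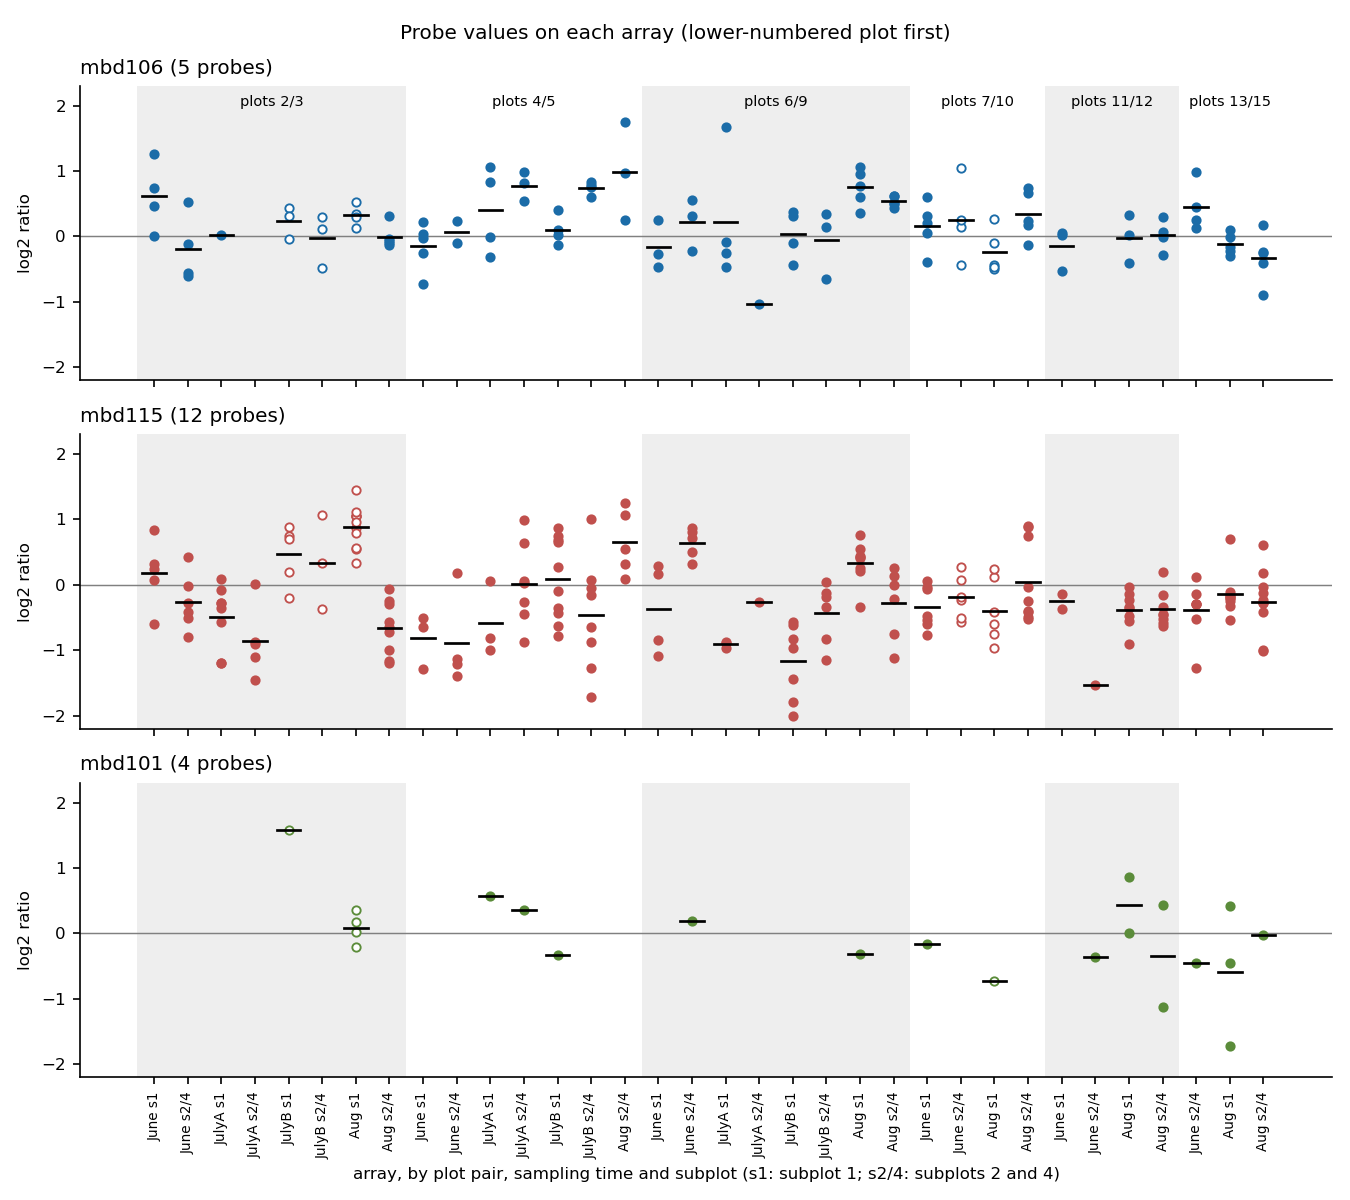
Log2 ratio of each measured probe (vertical axis) on each of the 34 arrays (horizontal axis), for mbd106, mbd115 and mbd101 in separate panels; s1 is subplot 1, s2/4 is subplots 2 and 4. Points are probes, open where the sign of the array was turned, black bars are gene means, and grey bands separate the plot pairs. All 11 measured mbd115 probes are positive on the Aug subplot 1 array of plots 2 and 3, and all 5 mbd106 probes are positive on both Aug arrays of plots 6 and 9.

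The gene mbd115 leaned to negative ratios in most pairs. Its array means were negative on 24 of 34 arrays turned and 25 of 34 as deposited. By pair they averaged -0.63 ± 0.60 (SD, n = 4) in plots 11 and 12, -0.30 ± 0.59 (n = 8) in plots 6 and 9, -0.28 ± 0.56 (n = 7) in plots 4 and 5, -0.26 ± 0.12 (n = 3) in plots 13 and 15, -0.22 ± 0.20 (n = 4) in plots 7 and 10 and -0.05 ± 0.61 (n = 8) in plots 2 and 3. The 4 arrays of plots 11 and 12 were at -0.25, -1.54, -0.38 and -0.37, and the 3 of plots 13 and 15 at -0.38, -0.14 and -0.26, so all 7 were negative. The -1.54 came from a single measured probe on a June array with 2516 values, and without that array the mean of plots 11 and 12 was -0.33. Neighbours in this order of pairs differ by less than their SD. Its 2 probes on at least 28 arrays averaged -0.02 in plots 4 and 5 and -0.05 in plots 7 and 10. For the same probes plots 11 and 12 gave -0.38 and plots 6 and 9 gave -0.25. Plots 13 and 15 gave -0.13 and plots 2 and 3 gave -0.07. The lean in plots 7 and 10 thus came mostly from probes with fewer values. In plots 4 and 5 the 2 probes differed, and probe 2473 averaged 0.41 over 6 arrays. Probe 8889 read -0.50 and -1.14 (June), -0.81 and 0.63 (JulyA), 0.74 and -1.27 (JulyB) and 0.09 (Aug) there.

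For mbd115 the direction of the ratio mattered in plots 2 and 3 and in plots 7 and 10. As deposited its mean there was -0.47 ± 0.35 (SD, n = 8), with 7 of 8 arrays negative, while turning spread the same arrays from -0.86 to 0.89. In plots 7 and 10 the mean went from -0.22 ± 0.20 turned to 0.07 ± 0.31 as deposited. On the 3 turned arrays of plots 2 and 3 the deposited mean was negative, and on the 2 turned arrays of plots 7 and 10 it was positive. In plots 7 and 10 both dye orientations have 2 arrays, so a constant dye effect cancels in the turned mean of a probe measured on all 4, whereas in plots 2 and 3 it cancels only in part.

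On 8 of the 31 arrays with at least 3 measured mbd115 probes all of them had a single sign, and some of these follow. On the Aug array of plots 2 and 3, subplot 1, all 11 measured probes were positive at 0.33 to 1.45 (mean 0.89), and on its partner from subplots 2 and 4 all 9 were negative at -1.19 to -0.07 (mean -0.65). As deposited both arrays were negative, at -0.89 and -0.65. All 7 probes measured on the JulyB subplot 1 array of plots 6 and 9 were negative at -2.0 to -0.57 (mean -1.17). On the Aug array of plots 4 and 5 all 5 were positive at 0.09 to 1.26 (mean 0.66). The June arrays of that pair had means of -0.81 and -0.89. Its JulyA arrays were at -0.59 and 0.02 and its JulyB arrays at 0.09 and -0.45. Of all turned values on the single-sign arrays named here, in order, 46.5%, 53.0%, 48.2% and 50.0% were above 0.

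The mbd115 probe with the most values was probe 2473 (29 arrays), positive on 13 of them turned and 12 as deposited. In plots 4 and 5 it ran from -0.09 to 1.26 (median 0.13, 6 arrays) with 5 positive. It ran from -1.11 to 0.55 (median -0.13, 8 arrays) in plots 2 and 3 and from -1.09 to 0.87 (median 0.16, 6 arrays) in plots 6 and 9. In both pairs the arrays thus lay on either side of 0. Plots 7 and 10 gave -0.07, 0.27, 0.12 and -0.42, again on either side, but as deposited all 4 were negative with a mean of -0.22. Plots 11 and 12 gave -0.35 and -0.16, and plots 13 and 15 gave -0.29, -0.11 and -0.04, all negative. Its median over all arrays was -0.04 turned, where the medians of the other mbd115 probes with at least 12 values lay between -0.39 and -0.15. As deposited it was -0.07, and probe 6466 lay nearer 0 at -0.04. Of the 12 probes 11 had a negative median when turned, the exception being probe 6233 with 4 values.

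The gene mbd101 gave 22 values in all, and its best measured probe, 10501, had a value on 11 arrays. That probe read 1.58 (JulyB) and 0.01 (Aug) for plots 2 and 3, 0.57 and 0.35 (both JulyA) for plots 4 and 5, and 0.19 (June) for plots 6 and 9. It read -0.16 (June) and -0.72 (Aug) for plots 7 and 10, -0.36 (June) and -1.13 (Aug) for plots 11 and 12, and -0.45 in both June and Aug for plots 13 and 15. The values of the former 3 pairs were thus all above 0 and those of the latter 3 all below 0 when turned. As deposited the order broke, because the mean of plots 2 and 3 became -0.80 and that of plots 7 and 10 became 0.28. No mbd101 probe had enough arrays to be tested, and its other probes, 9338, 12579 and 14576, had values on 6, 2 and 3 arrays.

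**Figure D3:**
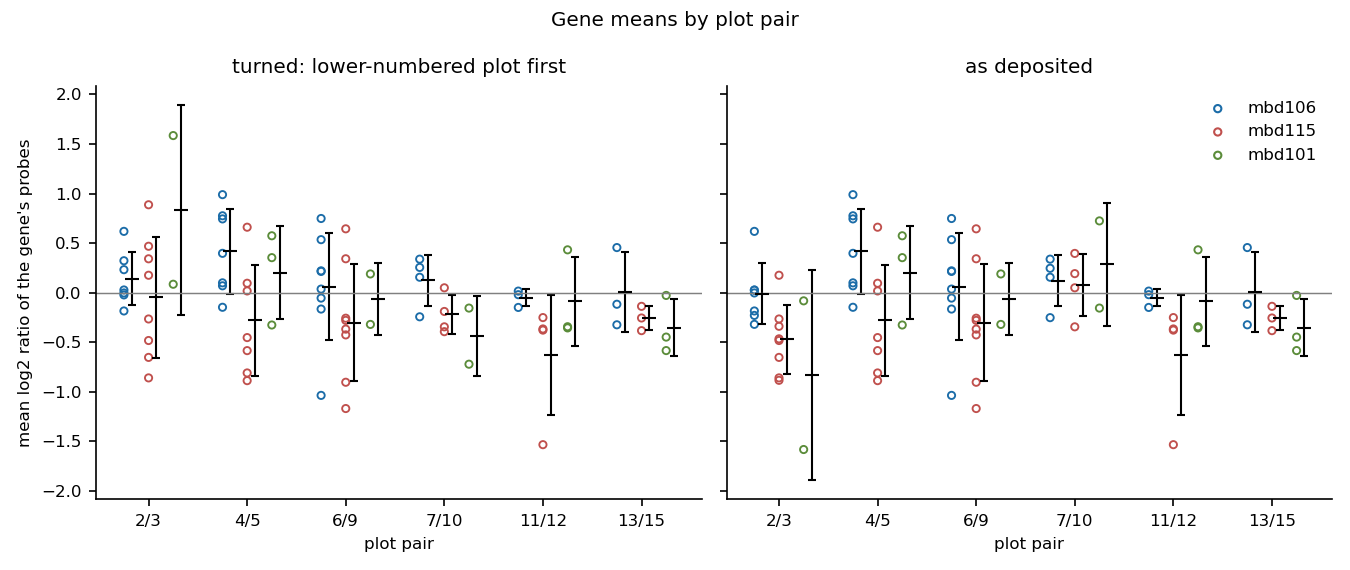
Mean log2 ratio of each gene's measured probes (vertical axis) by plot pair (horizontal axis), with the lower-numbered plot first on the left and as deposited on the right. Circles are arrays, and black bars are the mean ± SD over arrays. The mbd115 arrays of plots 2 and 3 average -0.05 when turned and -0.47 as deposited, while mbd106 in plots 4 and 5 averages 0.42 in both.

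Whether a plot difference held across the arrays of its pair was tested in a linear model over all probes with values on at least 28 arrays. Pairs had a coefficient each, the dye orientation was a term, and arrays with shared plant codes formed random blocks (limma, Benjamini-Hochberg adjustment over 1668 probes). The fitted correlation within blocks was -0.053 here, -0.026 in the fits over times and -0.096 in that of subplots. Being below 0, it made no allowance for likeness between arrays with a shared code. Of the 21 probes 3 entered: 2960 of mbd106 and 2473 and 8889 of mbd115. None was called by the F test over the 6 pairs at an adjusted p under 0.05, where the background was 0% of all probes. At an unadjusted p under 0.05 the background was 6.41% (107 probes), and again none of the 3 passed. The limma adjusted p of their F tests ran from 0.905 to 0.999. The low number of members tested follows from the gaps: 18 of the 21 probes had too few values to enter.

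The largest fitted differences of the 3 probes lay in plots 4 and 5. Probe 2473 of mbd115 was at 0.59 ± 0.26 (SE; unadjusted p = 0.0311, limma adjusted p = 0.654), and 5 of its 6 arrays were positive. Probe 2960 of mbd106 was at 0.50 ± 0.26 (unadjusted p = 0.0671, adjusted p = 0.782), with 5 of 7 arrays positive. Probe 8889 of mbd115 was at -0.09 ± 0.30 there, so the 2 mbd115 probes had opposite signs. In plots 4 and 5, 4.02% of all probes were positive at an unadjusted p under 0.05. All other coefficients of these 3 probes lay between -0.29 and 0.18. With the ratios as deposited and no dye term, 3.24% of all probes were called by the F test (54 probes) and none of the 3, with limma adjusted p from 0.295 to 0.573. Without adjustment 20.5% of all probes passed there, and again none of the 3. In that fit probe 2960 was at 0.52 ± 0.18 (unadjusted p = 0.00595, limma adjusted p = 0.301) and probe 2473 at 0.43 ± 0.20 (unadjusted p = 0.0396, adjusted p = 0.549) in plots 4 and 5, where 6.24% of all probes were positive at an unadjusted p under 0.05.

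Lowering the minimum to 20 arrays brought in 9 of the 21 probes among 3894, and the F test again called none, against a background of 0%. At an unadjusted p under 0.05 the background was 4.55% of probes, and none of the 9 passed. Single coefficients with an unadjusted p under 0.05 came from probe 6466 of mbd115, at -0.88 ± 0.38 in plots 2 and 3 and -0.93 ± 0.39 in plots 6 and 9, from probe 1272 of mbd106, at 0.67 ± 0.28 for plots 6 and 9, and from probe 2473 for plots 4 and 5. Of all probes 2.05% were negative at this level in plots 2 and 3, 3.57% negative and 1.87% positive in plots 6 and 9, and 3.44% positive in plots 4 and 5. None of these mbd coefficients had a limma adjusted p under 0.05. The 4 mbd106 probes in this set were all positive in plots 4 and 5, between 0.24 and 0.57, where 51.9% of all probes and 7 of the 9 mbd probes lay above 0, and none of them had an unadjusted p under 0.05 there.

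**Figure D4:**
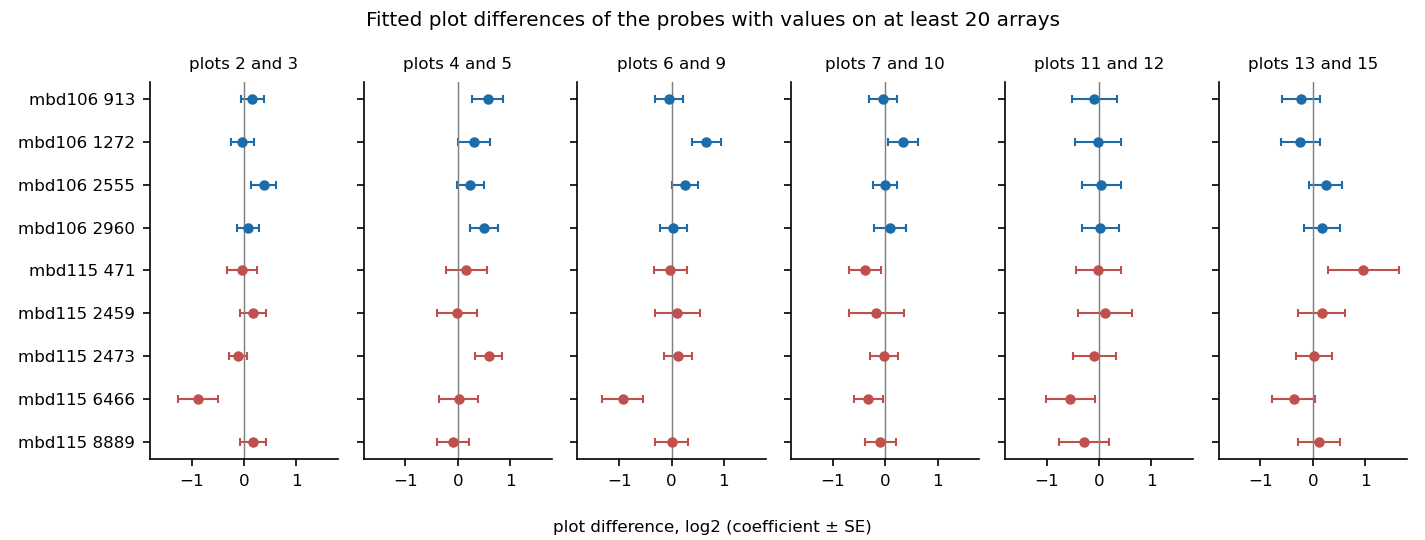
Fitted plot difference of each probe with values on at least 20 arrays (horizontal axes, log2, coefficient ± SE), 1 panel for each plot pair, with mbd106 probes in blue and mbd115 probes in red. The 4 mbd106 probes lie right of 0 in plots 4 and 5, and probe 6466 of mbd115 lies left of 0 in plots 2 and 3 and plots 6 and 9.

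Changes of the plot difference over the season were tested in the same way with cell means of pair and time. Over all 4 times in the 3 pairs sampled at each, 1 mbd probe could be fitted, 8889 of mbd115, and it was not called (limma adjusted p = 0.950, background 0% of 1368 probes, and 9.72% at an unadjusted p under 0.05). For Aug against June over all pairs the probe was 2960 of mbd106, which was not called either (limma adjusted p = 0.998, background 0% of 1194 probes, and 4.77% unadjusted). Its change from June to Aug was 1.05 ± 0.48 (SE) for plots 6 and 9, with an unadjusted p = 0.0434 and a limma adjusted p = 0.544, where 6.62% of all probes passed unadjusted in that direction. It was 1.0 ± 0.58 for plots 4 and 5 but -1.19 ± 0.59 for plots 13 and 15. As deposited, the F tests without adjustment passed 12.2% of probes over the 4 times and 6.11% for Aug against June (0.503% after adjustment), and neither mbd probe was among them. At the lower minimum of 20 arrays probe 913 of mbd106 entered the fit over 4 times, with an F test at unadjusted p = 0.0269 and limma adjusted p = 0.458. In that fit 9.57% of probes had an unadjusted p under 0.05, and 4.48% had in the fit of Aug against June with that minimum, where neither of the 2 mbd probes passed. Its largest step was 1.70 ± 0.61 from June to Aug in plots 4 and 5.

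Averaged over arrays of all pairs, the means of mbd106 and mbd115 differed between neighbouring times by less than the SD at either time. The sign in each pair follows plot number, so opposite changes in different pairs can cancel in these means. JulyA and JulyB also hold fewer pairs than June and Aug. The means therefore do not show whether the plot differences changed over the season. The mean of mbd106 was 0.11 ± 0.28 (SD, n = 10) in June, 0.08 ± 0.68 (n = 5) in JulyA, 0.17 ± 0.30 (n = 6) in JulyB and 0.20 ± 0.42 (n = 11) in Aug. That of mbd115 was -0.38 ± 0.57 (n = 11), -0.51 ± 0.35 (n = 6), -0.19 ± 0.61 (n = 6) and -0.05 ± 0.48 (n = 11). The mean of mbd101 was -0.19 ± 0.28 (n = 4) in June, 0.46 ± 0.16 (n = 2) in JulyA, 0.63 ± 1.35 (n = 2) in JulyB and -0.21 ± 0.40 (n = 7) in Aug. Its June and JulyA means lay farther apart than either SD, but they come from different pairs of plots, and as deposited the JulyB mean was -0.96.

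Arrays of subplot 1 and arrays of subplots 2 and 4 were compared within a pair and time. No array sets subplots of the same plot side by side, so only the plot difference can be compared. In plots 2 and 3 and plots 4 and 5 the arrays of subplots 2 and 4 set unlike subplots against each other. Their ratios hold plot and subplot together. For mbd106 both arrays of a pair and time were available in 14 combinations, and their means had the same sign in 5. For mbd115 it was 9 of 16, and as deposited the counts were 6 of 14 and 10 of 16. The mean of subplot 1 minus the other subplots was 0.06 ± 0.52 (SD, n = 14) for mbd106 and 0.10 ± 0.71 (n = 16) for mbd115, or 0.05 ± 0.51 and -0.0061 ± 0.61 as deposited. In the linear model none of the 3 probes tested was called (background 0% of 1583 probes, limma adjusted p from 0.903 to 0.936). None passed without adjustment either, where 5.5% of all probes did, or 6.76% as deposited, and 0 of 6 mbd probes passed at a minimum of 20 arrays, where 4.3% did. A single coefficient, that of probe 2473 in plots 6 and 9, was at -0.86 ± 0.38 (SE; unadjusted p = 0.0331, limma adjusted p = 0.364), and 4.8% of all probes were negative at that level in those plots. The widest gap of mbd115 was that between the Aug arrays of plots 2 and 3 given above, at 1.54 when turned and -0.23 as deposited.

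On the same array the ratio of mbd106 lay above that of mbd115 more often than below it. The sign of this difference follows the order of plots in a pair. It does not compare the transcript levels of the genes. The gene mean of mbd106 minus that of mbd115 was 0.35 ± 0.50 (SD, n = 32 arrays) and positive on 26 of 32 arrays, or 0.39 ± 0.48 and 27 of 32 as deposited. For plots 4 and 5 it was 0.70 ± 0.41 and positive on 7 of 7 arrays. For plots 7 and 10 it was 0.35 ± 0.16 and positive on 4 of 4 turned, but on 2 of 4 as deposited. Plots 2 and 3 gave a positive difference on 4 of 7 arrays turned and 7 of 7 as deposited. This comparison was chosen after the values were seen and carries no test. With only probes on at least 28 arrays, the means in plots 4 and 5 were 0.49 for mbd106 and -0.02 for mbd115.

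The medians of single probes showed the same contrast. As deposited, all 5 mbd106 probes had a positive median over their arrays and all 12 mbd115 probes a negative one. Among probes with at least 12 values, 10 of 10 mbd115 probes and 0 of 5 mbd106 probes had a negative median, against 42.1% of 6616 probes on the array. Probes of the same gene share arrays and target, so they are not separate observations. Whether the constant sign as deposited comes from the dye or from the plots was not tested.

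**Figure D5:**
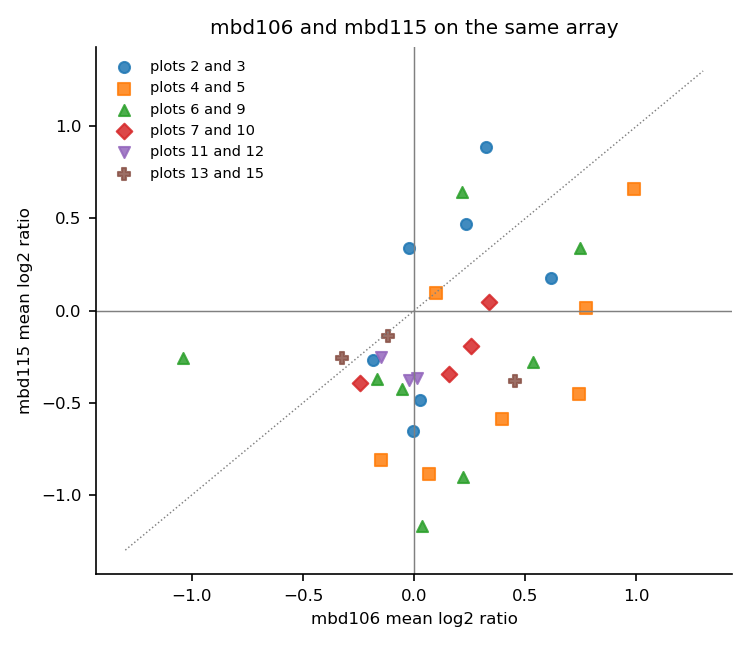
Mean log2 ratio of mbd115 (vertical axis) against that of mbd106 (horizontal axis) on the 32 arrays with both, by plot pair, with the lower-numbered plot first. Each point is 1 array and the dotted line marks equal values. On 26 of 32 arrays the point lies below the line, and the means rise together with r = 0.344.

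Probes of the same gene rose and fell together across arrays more than probes at large. The median Pearson r between mbd106 probes sharing at least 12 arrays was 0.355 over 9 probe pairs, between mbd115 probes 0.431 over 23, and between a probe of each 0.285 over 35 (0.385, 0.427 and 0.263 as deposited). Over all probe pairs of the pair fit it was 0.035. Such correlations share arrays and background and are given as a description. On arrays with at least 3 measured probes of the gene, the SD among its probes had a median of 0.367 for mbd106 and 0.480 for mbd115, against a scaled median absolute deviation of 0.546 over all probes of an array. The measures are unlike, and an SD over as few as 3 values tends to be low. The gap therefore does not show by itself that probes of a gene lie closer together. All measured probes of mbd106 were positive on 7 of 29 such arrays and all negative on 0. For mbd115 all were positive on 3 of 31 and all negative on 5. As deposited the counts were 6 positive and 1 negative for mbd106 and 2 positive and 6 negative for mbd115. Such counts were not made for other genes, so no background stands beside them.

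The gene means of mbd106 and mbd115 had Pearson r = 0.344 (0.368 as deposited) and Spearman rho = 0.285 over 32 arrays. Without the 2 arrays farthest from the median of mbd106 r was 0.297, and without the 2 farthest from that of mbd115 it was 0.228. After the mean of each pair was removed r was 0.391. Within pairs it was 0.519 in plots 2 and 3 (7 arrays), 0.683 in plots 4 and 5 (7 arrays) and 0.227 in plots 6 and 9 (8 arrays). The other pairs had under 5 arrays each. Among 124 gene symbols measured on enough arrays, mbd115 ranked 14 by its r with mbd106, and mbd106 ranked 10 by its r with mbd115. As deposited the ranks were 7 and 12. With those omissions of 2 arrays they were 16 and 33.

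With the ratios turned, the symbols with the nearest pattern are locus numbers with no described product in the annotation. For mbd106 the highest r was with LOC542301 (0.503, 32 arrays), LOC542320 (0.452, 30 arrays) and LOC542479 (0.441, 32 arrays), and the lowest with LOC542715 (-0.536, 28 arrays), LOC542160 (-0.427, 28 arrays) and LOC732740 (-0.352, 27 arrays). For mbd115 the highest were LOC542316 (0.579, 34 arrays), LOC542737 (0.520, 32 arrays) and LOC541952 (0.514, 31 arrays), and the lowest LOC542601 (-0.493), LOC542725 (-0.482) and LOC542291 (-0.449), each over 34 arrays. As deposited mbd106 kept LOC542301 (0.476) and LOC542320 (0.462) as its nearest, followed by mbd105 (0.452, 27 arrays). For mbd115 the nearest as deposited were LOC542737 (0.593), LOC541952 (0.550) and LOC542333 (0.505), then hsp70-4, a heat shock protein gene, at 0.501, while LOC542316 ranked 9 at 0.383. Without the 2 arrays farthest from the median of mbd115, LOC541952 ranked first at 0.646 and LOC542316 was at 0.463. Without the corresponding 2 arrays for mbd106, LOC542479 ranked first at 0.514 and LOC542301 ranked 5 at 0.379. The order thus depends on the direction and on single arrays. The median turned r over the 124 symbols was 0.042 for mbd106 and -0.025 for mbd115.

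Few other genes of DNA methylation and chromatin could be set beside these. Of the remaining mbd symbols, mbd105 had 3 probes (on 12 to 23 arrays), mbd109 had 3 (5 to 13) and mbd111 had 1 (30 arrays). The mbd111 probe, 2917, entered the pair fit and was not called (limma adjusted p of its F test 0.946), with coefficients from -0.53 ± 0.34 (SE) in plots 13 and 15 to 0.36 ± 0.40 in plots 11 and 12. The DNA methyltransferase gene met2 had 3 probes with values on at most 3 arrays, and the histone deacetylase gene HDA108 had 1 probe on 7 arrays, 6 of them positive, with a median of 0.42. MNB1b, a maize gene for a high mobility group protein that binds DNA, had 230 probes, of which 135 were in the pair fit and 0 called by the F test, against a background of 0%. Without adjustment 6 passed the limma F test, against 6.41%. As deposited 2 of the 135 were called by the F test, against 3.24%, and 24, all positive, for plots 2 and 3 alone, where 102 of 1668 probes were called. Its array means had r = 0.249 with mbd106 and -0.389 with mbd115.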

How the data were processed

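An RNeasy kit gave total RNA and a Genisphere kit labelled it, per the labels' protocols. The values deposited by the authors are log10 ratios within an array, a scale settled from the values: on each array 82.2% to 99.1% were the log10 of a whole number over a whole number (denominator up to 1000, tolerance 6e-10), and at most 0.101% if read as log2. Scanner, normalization, background correction and any filter: not given in the sources used here. Log10 values were converted to log2. Probes were named from the platform annotation. Models followed limma 3.58.1 with statmod 1.5.0 in R 4.3.3: moderated variances, F tests from each probe's own arrays, Benjamini-Hochberg over all probes tested, calls at adjusted p under 0.05. Probes needed values on at least 28 arrays and 2 of each pair. The fit was checked against lmFit and eBayes and tested on simulated data. Precision is limited by the number of arrays. The column left unmapped was 1, the empty array.

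All 21 probes were accounted for. Probes in the pair fit were named with coefficients, and for each gene the probe on most arrays was given array by array. Likeness was the Pearson r of gene means with symbols on at least 28 arrays, with the 3 highest and 3 lowest named; the highest as deposited and hsp70-4 were added after values were seen. Members, lists and tests were chosen with earlier results of these data known, and the minimum of 12 shared arrays, the difference between mbd106 and mbd115, the count of arrays with probes of a single sign and the further mbd symbols were chosen after values were seen. Listed leaf and seed genes were counted only: Cab-m7 had 1 probe on 13 arrays, and the zein genes gz27 and dzs18 1 probe each on 5 and 3. Alternatives were the ratios as deposited, no dye term, no block, centred arrays, other minimum numbers of arrays and leaving out each array.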

Additional observations from a re-analysis of the deposited data

Results flagged for a closer look

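A June array of plots 11 and 12 (subplot 2) stood apart from the other 3 arrays of its pair by Dixon's criterion at 95%. Its mean over the mbd probes was -0.95, next to -0.26 for the nearest array, and its mbd115 mean was -1.54, next to -0.38. It held 2516 values in all, with 2 mbd probes measured, of which 1 was an mbd115 probe. In all 21 sets of 4 to 10 arrays were examined and 2 stood out. Chance gives about 1 in 20 for separate sets, but these sets share arrays and probes. Both that stood out hold the same mbd115 probe value of this array, so they count as a single observation.

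For mbd101 some pairs of plots had all their turned arrays on opposite sides of 0, and these differences were not tested. Since the order within a pair follows plot number alone, opposite sides of 0 do not mean opposite responses. The gene mean held both signs in plots 4 and 5, plots 6 and 9 and plots 11 and 12. The gene mean of plots 2 and 3 exceeded that of plots 7 and 10 by 1.27 (0.83 against -0.44, 2 arrays each) and that of plots 13 and 15 by 1.19 (-0.35, 3 arrays). Probe 10501 in plots 2 and 3 lay 1.24 above plots 7 and 10, 1.54 above plots 11 and 12 and 1.25 above plots 13 and 15. In plots 4 and 5 it lay 0.90, 1.21 and 0.91 above the same 3 pairs, on 2 arrays each. With the ratios as deposited, plots 2 and 3 turn to -0.83 for the gene and -0.80 for the probe, and plots 7 and 10 to 0.28 for both. With either array left out, the gene mean of plots 2 and 3 was 0.08 or 1.58.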

How the results depend on the processing

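No member probe was called in any of the fits run, with the ratios turned or as deposited, with or without the block or dye term, with centred arrays, at either minimum, or with any 1 array left out of the pair fit. Under the alternatives 152 values stayed within the spread between arrays or on the same side of the threshold. With 1 array left out the count was 319. Dropping 1 array cannot move a mean beyond that spread, so for means this count carries no information. Signs did change, among others for all mbd probes in plots 2 and 3 on 3 of 8 omissions. They changed for mbd115 there on 3 of 8 and for mbd101 in plots 11 and 12 on 2 of 3. For mbd106 in plots 4 and 5 the sign changed on 0 of 7. With the ratios as deposited, mbd101 went to -0.83 in plots 2 and 3 and 0.28 in plots 7 and 10, mbd115 to 0.072 in the latter plots, and the coefficient of probe 8889 for plots 2 and 3 from 0.17 to -0.41 (-0.42 without the block, -0.41 at a minimum of 20 arrays). With probes on at least 28 arrays only, plots 13 and 15 moved to -0.022 for all mbd probes and -0.13 for mbd115, on 3 arrays. The same filter took mbd115 from -0.28 to -0.02 in plots 4 and 5. In plots 7 and 10 it went from -0.22 to -0.05. Both steps were smaller than the SD over arrays. At 20 arrays the fit over 4 times had 1 member at an unadjusted p under 0.05, where the main filter had 0. Detection differed by gene: mbd101 stood at 9.09%, 8.33%, 8.33% and 31.8% over the 4 times and mbd106 at 67.3% in June, 70.0% in JulyB and 89.1% in Aug. Leaving out 1 array moved the mbd115 mean between -0.18 and 0.07 in plots 2 and 3 and between -0.76 and -0.33 in plots 11 and 12, and the mbd106 mean between 0.32 and 0.51 in plots 4 and 5. No paired analysis was possible because replicate numbers only name arrays in order and match none across plot pairs. Shared plant codes were a random block instead, with a fitted correlation below 0, and subplots were set side by side within a pair and time. Combined alternatives, and the lower minimum for times and subplots, were chosen after seeing the data. The cause of these shifts was not tested.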

Other observations

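The array whose 2 channels carry 1 plant code, which belongs to no pair, had values at 20 of the 21 probes. Their median was 0.27 and their mean 0.05, between -2.17 and 1.10, while the median over all probes of that array was -0.40.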
